A study of Mus musculus with 18 samples.

Results

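The response of CT26-NY-ESO-1 tumours to OK-432 was described from the 6 CT26NYESO1 libraries among the 18 tumour libraries of the series, 3 from tumours given OK-432 (OK432) and 3 from tumours without it (Ctrl). CT26 is a mouse colon carcinoma line that grows in BALB/c mice, and CT26-NY-ESO-1 carries the name of the human tumour antigen NY-ESO-1. OK-432 is a lyophilised, penicillin-treated preparation of Streptococcus pyogenes used as an immune stimulant. The OK432 tumours had received it by injection into the tumour for 24 hours, and all tumours had been inoculated under the skin and were taken on day 14. The hosts of the series were BALB/cJ and C57BL/6J mice, with no label tying a strain to a line. Whether the line is 1 clone, how the antigen was introduced, what the Ctrl tumours were injected with and the age of the mice: none of these is given in the sources used here. The labels name replicates 1 to 3 in each group without saying that they are separate mice, and the p-values therefore speak of library-to-library spread, part of which may be technical. The other 12 libraries, from CT26 and LL2 (Lewis lung carcinoma) tumours treated or not in the same way, served to share an estimate of spread and for a comparison of effects.

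Bacterial products are sensed by Toll-like receptors and related receptors on macrophages and stromal cells. The signals run through the NF-kappaB family of transcription factors and switch on interleukin-1, other cytokines and the CXC chemokines that bind the receptor Cxcr2. Neutrophils carry Cxcr2 and follow these chemokines out of the blood; their cytosol is rich in the calcium-binding proteins S100a8 and S100a9, and colony-stimulating factor 3 (Csf3, or G-CSF) is the cytokine that drives neutrophil production.

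The rises with OK-432 in CT26NYESO1 tumours were led by genes of neutrophils and by the chemokines that attract them. S100a9, S100a8, Lcn2, G0s2 and the chemokines Cxcl2, Cxcl3 and Cxcl5 rose together with Il1b and the acute-phase gene Saa3, by 2.90 to 6.04 on the log2(TPM + 1) scale. TPM gives each gene as its share of a library, corrected for transcript length. Treated replicate 2 showed the same genes at a much lower level than treated replicates 1 and 3. Falls were small: among called genes of at least 5 TPM, Cryl1 fell most, at -0.67. Genes of the interferon-gamma axis, T cells and cytotoxic cells did not pass the test in either direction. In whole tumours, a smaller number of cells of a type and less RNA per cell cannot be told apart, and the same holds for a larger number and more RNA.

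Of 55291 genes in the table, 14651 had at least 1 TPM in at least 3 of the 6 libraries and were tested. At a Benjamini-Hochberg limma adjusted p under 0.05, 78 were called higher with OK-432 (0.532%) and 54 lower (0.369%). The filter itself fixes part of this: 9 of the 78 rises (Asprv1, Chil1, Cstdc4, Cxcl3, G0s2, Il1f9, Mirt2, Stfa2l1 and Tmeff1) had every control under 1 TPM and entered the test only because all 3 treated libraries reached 1 TPM, so their groups had to be apart. Over all genes tested there were 31 of these, and 14 that entered through the controls alone, 2 of them among the falls. The median log2 difference over all genes tested was -0.03. With the values rescaled by median-of-ratios factors the calls were 87 higher and 35 lower, and after quantile normalization 117 higher and 50 lower. When the 6 libraries were fitted alone, without the spread of the CT26 and LL2 libraries, no gene was called (smallest limma adjusted p = 0.299), although 1794 genes had an unadjusted p under 0.05. In the shared fit 2592 genes had an unadjusted p under 0.05 (17.7%). Leaving out treated replicate 2 gave 404 higher and 309 lower calls, and these held all 78 of the higher genes and 51 of the 54 lower genes. Leaving out treated replicate 3 left 3 higher calls (S100a9, Chil1 and Cstdc4) and 1 lower call (Cryl1). Leaving out control replicates 1, 2 or 3 gave 14, 12 or 15 higher calls and 9, 7 or 9 lower calls. Without treated replicate 1 there were 55 higher and 159 lower calls.

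**Figure D1:**
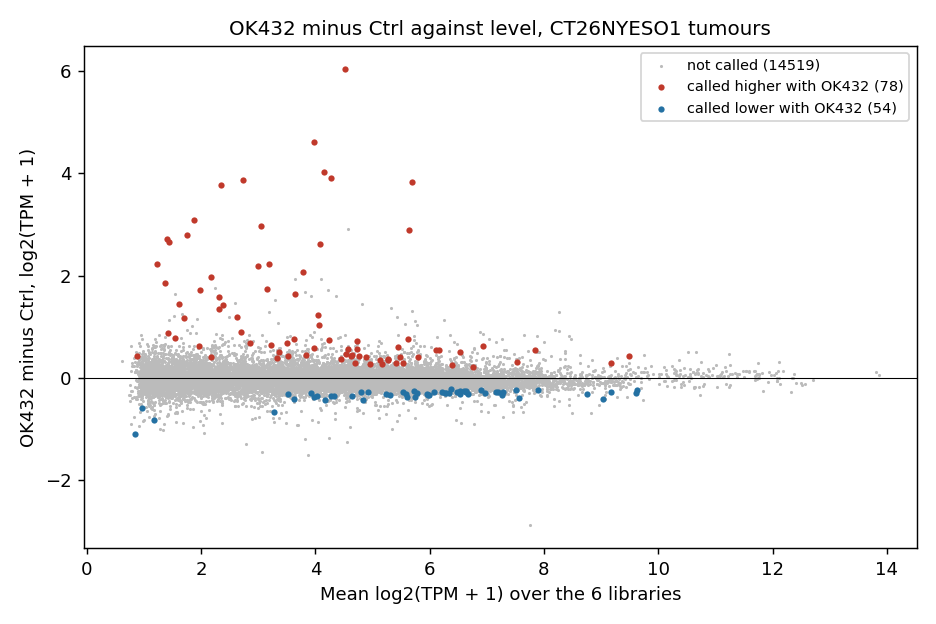
Difference between OK432 and Ctrl CT26NYESO1 tumours (y axis, log2(TPM + 1)) against the mean level over the 6 libraries (x axis, log2(TPM + 1)) for the 14651 genes tested. The 78 called rises (red) reach 6.04, whereas the 54 called falls (blue) lie close to the zero line and grey points are genes not called.

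The 6 libraries were close to each other as wholes, and no pair held identical values. Across the genes, which are not independent replicates, Pearson's r was 0.986 to 0.991 among the OK432 libraries, 0.988 to 0.991 among the Ctrl libraries and 0.981 to 0.991 between the groups. Treated replicate 2 was closer to Ctrl replicates 1 to 3 (0.9902, 0.9888 and 0.9909) than to treated replicates 1 and 3 (0.9863 and 0.9882). Treated replicates 1 and 3 stood at 0.9908 with each other and at 0.9806 to 0.9851 with the controls. The mitochondrially encoded share of TPM was 5.95%, 6.21% and 5.82% in OK432 replicates 1 to 3, against 6.26%, 6.63% and 5.91% in Ctrl. The depth of the libraries is unknown, since TPM does not keep it. Of the 7 colon epithelial markers looked up, 2 reached the filter (Krt18 and Cdh1), and the human antigen gene is not analysed here. A value of exactly 0 can be a failed estimate and is described as listed at 0.

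The libraries also split in a way that did not follow treatment. Summed over 12 skeletal muscle genes, TPM was 17.2, 145 and 11.2 in OK432 replicates 1 to 3, against 130, 9.88 and 165 in Ctrl replicates 1 to 3. Treated replicate 2 and control replicates 1 and 3 therefore held the muscle transcripts, while treated replicates 1 and 3 and control replicate 2 held little. The antigen-presenting MHC class II genes split the libraries the same way: their 7 members summed to 1063, 2481 and 1116 TPM in OK432, against 2781, 1194 and 2194 TPM in Ctrl. For the leading rises below, control replicate 2 can be set beside treated replicates 1 and 3, since all 3 were low in muscle transcripts. That reading rests on 1 control library picked after the values were seen, and it is not a matched comparison. The part of muscle content in the low response of treated replicate 2 was not tested.

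S100a9 and S100a8 encode the subunits of calprotectin, the main cytosolic protein of neutrophils, and lie side by side on chromosome 3 (S100a8 at chr3:90668978-90670035, plus strand, and S100a9 at chr3:90692632-90695721, minus strand; build mm10, GENCODE M21). S100a9 stood at 452, 42.9 and 320 TPM in OK432 tumours, against 1.78, 1.72 and 1.95 TPM in Ctrl tumours. Every treated library lay far above every control, with replicate 2 lowest among the treated. The log2 difference was 6.04 (SE 0.64, limma adjusted p = 0.00358), and with each of the 18 libraries left out in turn it ranged from 5.40 to 7.08 and stayed called. S100a8 stood at 183, 19.6 and 123 TPM in OK432, against 1.54, 1.90 and 3.32 TPM in Ctrl, and rose by 4.62 (SE 0.62, limma adjusted p = 0.00918). The groups did not overlap. Its call was lost without treated replicate 3, where the difference was 4.28 and the limma adjusted p 0.0792.

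Among the other neutrophil genes, G0s2, an inhibitor of fat breakdown that neutrophils express strongly, stood at 32.8, 4.97 and 32.6 TPM in OK432, against 0.449, 0.143 and 0.615 TPM in Ctrl. The difference was 3.77 (SE 0.53, limma adjusted p = 0.00918), in a gene that entered the test through the treated libraries alone. It lost its call without treated replicate 3 (limma adjusted p = 0.0713). Clec4e, the receptor Mincle, which binds glycolipids of microbes and dead cells, stood at 46.5, 11.7 and 36.5 TPM in OK432, against 6.29, 3.73 and 7.71 TPM in Ctrl (log2 difference 2.08, SE 0.38, limma adjusted p = 0.0322). Here too the lowest treated library was replicate 2, and it was above the highest control. Csf3r, the receptor of G-CSF, stood at 33.0, 17.0 and 25.3 TPM in OK432, against 12.4, 6.57 and 11.6 TPM in Ctrl (1.22, SE 0.26, limma adjusted p = 0.0433). Its groups were closer together, and its call held in 4 of the 18 refits that each left out 1 library.

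Of the 22 genes in the neutrophil surface and cytosol list, 16 were tested. Of these, 10 were called higher, beside 0.532% of all genes tested, and none was called lower. The 5 rises not yet given were Trem1 (an activating receptor of myeloid cells), Fpr1 (a receptor for bacterial formyl peptides), Il1r2 (the interleukin-1 decoy receptor), Asprv1 and Mxd1, with log2 differences of 1.19 to 1.98. The median over the 16 genes was 1.53, beside -0.03 over all genes tested, and it was 2.08, 0.70 and 1.84 in treated replicates 1 to 3 taken against the control mean. In all, 12 of the 16 had every treated library above every control, beside 7.40% of all genes tested, but for G0s2 and Asprv1 the filter fixed this. Of the other 14, 10 had it, 8 were called and the median was 1.39. Without treated replicate 2, 13 of the 16 were called higher, beside 404 of the 14651 genes tested. Here and below, this refit is singled out after the low response of that library was seen. Its counts and p-values therefore describe and test nothing. Without treated replicate 3, only 3 of all genes tested were called higher. The 3 uncalled members of highest level were Slfn4, at 123, 42.7 and 97.2 TPM in OK432 against 34.4, 33.4 and 27.8 TPM in Ctrl, Clec4d and Fpr2, with limma adjusted p of 0.131, 0.083 and 0.355.

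Several defining neutrophil genes, singled out after their values were seen, never entered the test, because the filter asks for 3 libraries and they reached 1 TPM in treated replicates 1 and 3 only. Cxcr2, the chemokine receptor itself, was at 7.44, 0.766 and 5.23 TPM in OK432, against 0.153 and 0.0847 TPM in Ctrl replicates 1 and 2, and was listed at 0 in Ctrl replicate 3. Retnlg, a resistin-like protein of neutrophils, was at 9.44, 0.724 and 4.27 TPM in OK432, against 0.513 and 0.290 TPM in the first and second Ctrl replicates, and was listed at 0 in the third. Mrgpra2a and Mrgpra2b had the same shape, and so did Csf3 (5.10, 0.438 and 3.59 TPM in OK432, against 0.141 and 0.0721 TPM in Ctrl replicates 1 and 3, with 0 listed in replicate 2). Over all genes of the table, 59 reached 1 TPM in treated replicates 1 and 3 and in no other library of the 6. The matching counts were 23 for treated replicates 1 and 2, 27 for treated replicates 2 and 3, and 16 to 41 for pairs of control libraries. Cxcr1 and Ly6g, 2 further neutrophil genes, also stayed under the filter, but they were not among the 59 genes that reached 1 TPM only in treated replicates 1 and 3. Itgam, an integrin chain shared by neutrophils, monocytes and macrophages, was at 178, 147 and 140 TPM in OK432, against 160, 114 and 170 TPM in Ctrl, and the groups overlapped.

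Neutrophils fill their granules in successive stages, and the granule genes were looked up by stage. Lcn2, or lipocalin 2, which withholds iron from bacteria, stood at 196, 19.9 and 101.2 TPM in OK432, against 4.38, 2.99 and 4.87 TPM in Ctrl (3.90, SE 0.66, limma adjusted p = 0.0255). All treated libraries were above the controls, and its call was lost when treated replicate 3 or any control was left out. Lcn2 is also made by epithelial cells and macrophages. Hp, or haptoglobin, was at 39.3, 11.7 and 35.1 TPM in OK432, against 9.93, 4.91 and 9.12 TPM in Ctrl, and was not called (1.61, limma adjusted p = 0.141). The late-precursor genes Ltf, Camp and Ngp and the surface gene Cd177, named here because they were under the filter, were low in both groups: Ltf was at most 0.633 TPM in OK432 and 0.122 TPM in Ctrl. Of the primary granule genes, made earlier still, Elane was listed at 0 in all 6 libraries, and Ctsg was at 3.55, 2.84 and 3.29 TPM in OK432, against 3.76, 2.20 and 7.58 TPM in Ctrl. Mast cells express cathepsin G too, and their genes Tpsb2 and Cma1 were high in both groups.

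Small protease inhibitors of the stefin family, which mature mouse neutrophils carry in the cytosol, were another group. Stfa2l1 stood at 18.8, 2.82 and 15.2 TPM in OK432, against 0.581 and 0.286 TPM in Ctrl replicates 1 and 3, and was listed at 0 in Ctrl replicate 2 (3.08, SE 0.46, limma adjusted p = 0.00972). Cstdc4 stood at 10.2, 3.48 and 13 TPM in OK432, against 0.550 and 0.358 TPM in Ctrl replicates 1 and 3, and was listed at 0 in replicate 2 (2.79, SE 0.36, limma adjusted p = 0.00405). Both entered the test through the treated libraries alone, so that their groups had to be apart. Stefin genes are near-identical copies in a cluster, so the split of reads among them is uncertain. Cstdc4 kept its call in all 18 refits.

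**Figure D2:**
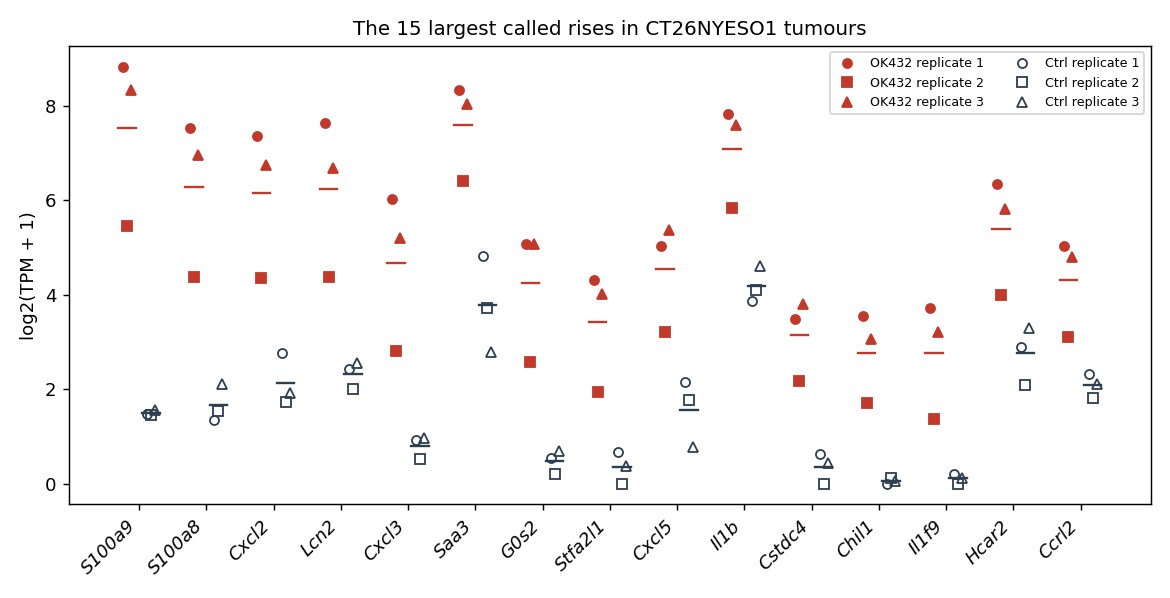
Level in each CT26NYESO1 library (y axis, log2(TPM + 1)) of the 15 largest called rises among genes of at least 5 TPM in either group; filled symbols are OK432 libraries, open symbols Ctrl libraries, and bars are group means of 3. In all 15 genes the filled symbols are above the open ones, which the choice of genes required. The filled square, treated replicate 2, is the lowest of the 3 filled symbols.

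The ligands of Cxcr2 form a cluster on chromosome 5 within chr5:90759360-90905938 (mm10), from Cxcl5 to Cxcl2. Cxcl2, or MIP-2, stood at 164, 19.5 and 107 TPM in OK432, against 5.77, 2.29 and 2.76 TPM in Ctrl. The treated libraries were all above the controls, and the difference was 4.03 (SE 0.63, limma adjusted p = 0.0208). Cxcl3 stood at 64.0, 5.97 and 35.5 TPM in OK432, against 0.897, 0.432 and 0.944 TPM in Ctrl (3.87, SE 0.62, limma adjusted p = 0.0211). Cxcl5 stood at 31.6, 8.26 and 40.5 TPM in OK432, against 3.41, 2.40 and 0.708 TPM in Ctrl (2.98, SE 0.52, limma adjusted p = 0.0287). The groups of Cxcl5 were apart, and those of Cxcl3 were apart by the filter, which the gene passed through the treated libraries alone.

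Cxcl1, or KC, had the same pattern and more spread: 168, 12.1 and 125 TPM in OK432, against 8.64, 6.15 and 8.67 TPM in Ctrl. The lowest treated library was above the highest control, but the gene was not called (2.91, SE 0.74, limma adjusted p = 0.0786). Without treated replicate 2 its difference was 4.06 (limma adjusted p = 0.000162). Over the 5 tested members of the 6 ligands, 3 were called higher, beside 0.532% of all genes tested. The median was 2.98, beside -0.03 over all genes tested. Leaving out Cxcl3, which passed the filter through the treated libraries alone, 2 of 4 were called and the median was 2.94. The medians of the 5 members were 4.28, 1.65 and 3.85 in treated replicates 1 to 3. The ligands summed to 435, 47.2 and 313 TPM in OK432, against 19.3, 12.7 and 14.3 TPM in Ctrl. Cxcl2, Cxcl3 and Cxcl5 each lost the call without treated replicate 3 (limma adjusted p = 0.14, 0.14 and 0.172).

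The starts of Cxcl3, Cxcl2 and Ccrl2, 3 of the 15 largest rises, are shown because they hold a letter pattern of the kind bound by NF-kappaB. It lies within the 250 bases before the RefSeq start (build GRCm38.p6). The kappaB pattern searched, on both strands, was GGG, any pair of bases, TT, any base and CC, and each match is in capitals below, 5′ to 3′ along the gene, with 20 bases to either side.
Cxcl3, chr5:90786008-90786057, plus strand: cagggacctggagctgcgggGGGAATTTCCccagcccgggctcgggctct
Cxcl2, chr5:90903782-90903850, plus strand: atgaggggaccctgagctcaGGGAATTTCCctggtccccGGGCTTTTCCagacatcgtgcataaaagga
Ccrl2, chr9:111057545-111057594, minus strand: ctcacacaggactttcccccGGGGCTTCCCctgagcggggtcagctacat
The pattern was in 3 of the 13 largest rises that had a promoter in the table, in 4.11% of all 32851 promoters and in 5.79% of those of 10185 genes tested. A looser C/EBP-like pattern, TTNNGNAA, was in 9 of the 13 and in 36.8% of all promoters, and an AP-1 pattern, TGANTCA, was in none of the 13 and in 6.75% of all promoters. The kappaB matches lay 64 to 73 bases before the start in Cxcl3, 88 to 97 and 69 to 78 in Cxcl2, and 47 to 56 in Ccrl2, and the C/EBP-like match of Cxcl2, at 229 to 236, did not overlap them. A match is a description of sequence, not a bound site.

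Ccrl2, an atypical receptor that presents the chemoattractant chemerin, stood at 31.6, 7.65 and 26.6 TPM in OK432, against 3.96, 2.52 and 3.32 TPM in Ctrl (2.23, SE 0.41, limma adjusted p = 0.0300). Its groups were apart. Among the CC chemokines, which draw monocytes and lymphocytes, none of 12 tested members was called by limma. An unadjusted p under 0.05 was found in 3, beside 17.7% of all genes tested. Ccl3 and Ccl4, singled out after their values were seen, had all treated libraries above the controls: Ccl3 was at 63.8, 12.1 and 43.5 TPM in OK432, against 11.8, 5.46 and 12.02 TPM in Ctrl (limma adjusted p = 0.136). The monocyte chemokines Ccl8 and Ccl12 had all treated libraries below the controls without being called: Ccl8 was at 467, 426 and 365 TPM in OK432, against 523, 631 and 655 TPM in Ctrl (limma adjusted p = 0.67). Ccl2 overlapped between the groups.

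Interleukin-1 genes moved in part. Il1b, the secreted fever cytokine, stood at 226, 56.4 and 191 TPM in OK432, against 13.6, 16.1 and 23.2 TPM in Ctrl. Every treated library was above every control, and the difference was 2.90 (SE 0.43, limma adjusted p = 0.0156). It lost its call without treated replicate 3 or control replicates 1 or 2, with limma adjusted p up to 0.107. Il1a, its neighbour on chromosome 2, which is released by damaged cells, stood at 9.82, 2.73 and 8.11 TPM in OK432, against 0.764, 1.35 and 1.504 TPM in Ctrl (1.72, SE 0.31, limma adjusted p = 0.0237). Il1f9, the older symbol of Il36g, which encodes interleukin-36 gamma, stood at 12.2, 1.58 and 8.24 TPM in OK432. In Ctrl it was at 0.158 and 0.0833 TPM in replicates 1 and 3 and listed at 0 in replicate 2 (2.66, SE 0.40, limma adjusted p = 0.00918). The groups of Il1a were apart, whereas Il1f9 passed the filter through the treated libraries alone.

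Il1rn, the natural antagonist of the interleukin-1 receptor, was at 89.0, 33.6 and 87.5 TPM in OK432, against 23.6, 20.6 and 42.7 TPM in Ctrl. Treated replicate 2 lay within the control range, and the gene was not called (1.19, limma adjusted p = 0.102). Of 10 tested members of the interleukin-1 family list, 2 were called higher, beside 0.532% of all genes tested, 4 had all treated libraries above the controls, beside 7.40%, and the median was 0.54. Il1f9 is not counted there, because the list holds the symbol Il36g, under which the table has no gene. Il6, which sets off the acute-phase response in liver, was at 6.16, 1.52 and 6.42 TPM in OK432, against 1.37, 1.75 and 1.496 TPM in Ctrl (1.01, limma adjusted p = 0.0808). Treated replicates 1 and 3 were above all controls, and replicate 2 was among them. None of the 10 interleukin-6 family genes was called by limma, while 6 had an unadjusted p under 0.05, beside 17.7% of all genes tested. Without treated replicate 2, 3 were called higher, beside 404 of the 14651 genes tested. Tnf did not part the groups at all, at 17.9, 13.9 and 12.5 TPM in OK432 against 17.9, 10.9 and 15.7 TPM in Ctrl (0.01, SE 0.17).

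Among the 17 feedback genes of NF-kappaB signalling, 3 were called higher, beside 0.532% of all genes tested. They rose by less than the chemokines did. Zc3h12a, or regnase-1, an RNase that degrades cytokine mRNAs, stood at 25.3, 20.1 and 25.5 TPM in OK432, against 14.0, 11.3 and 15.8 TPM in Ctrl (0.75, SE 0.13, limma adjusted p = 0.0208). Bcl3, a nuclear I-kappaB protein, stood at 29.5, 28.7 and 26.0 TPM in OK432, against 17.2, 18.4 and 20.4 TPM in Ctrl (0.56, SE 0.12, limma adjusted p = 0.0396). In these genes the 3 treated libraries were close together and above all controls. Tnip1, which binds the feedback enzyme A20, also rose (0.45, SE 0.10, limma adjusted p = 0.0487), with a call that held in 3 of 18 refits. Nfkbia, the I-kappaB alpha inhibitor, was at 205, 99.3 and 203 TPM in OK432, against 79.1, 74.1 and 106 TPM in Ctrl. Here treated replicate 2 fell within the control range, and the gene was not called (0.90, limma adjusted p = 0.0858). Over the 17 genes of the list the median was 0.26. Without treated replicate 2, 8 were called higher, beside 404 of the 14651 genes tested.

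Of 14 genes that sense bacteria, 1 was called higher, beside 0.532% of all genes tested. Cd14, the co-receptor that hands lipid-bearing ligands to Toll-like receptors, stood at 180, 121 and 156 TPM in OK432, against 102, 87.1 and 102 TPM in Ctrl (0.62, SE 0.12, limma adjusted p = 0.0354). The groups did not overlap, and the call held in 9 of 18 refits. Tlr2, the receptor for Gram-positive lipoproteins, chosen after its values were seen, was at 16.8, 21.1 and 16.3 TPM in OK432, against 19.6, 13.2 and 15.6 TPM in Ctrl, with overlap. The median of the list was -0.03.

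Of the 7 tested acute-phase and antimicrobial genes, 3 were called higher, beside 0.532% of all genes tested. Saa3, the serum amyloid A made outside the liver, stood at 324, 83.9 and 262 TPM in OK432, against 27.0, 12.1 and 5.92 TPM in Ctrl (3.82, SE 0.79, limma adjusted p = 0.0466). The groups were apart, but the controls spread widely and the call held in 3 of the 18 refits. Slpi, an inhibitor of neutrophil elastase, stood at 27.3, 8.09 and 17.96 TPM in OK432, against 3.05, 2.75 and 2.40 TPM in Ctrl (2.19, SE 0.37, limma adjusted p = 0.0213). Lcn2, given above, was the other member called, and the list median was 1.76. Chil1, a chitinase-like protein of activated myeloid cells, stood at 10.7, 2.24 and 7.35 TPM in OK432, was listed at 0 in Ctrl replicate 1 and was at 0.0824 and 0.0446 TPM in the other Ctrl libraries (2.71, SE 0.33, limma adjusted p = 0.00358). It passed the filter through the treated libraries alone, and it kept its call in all 18 refits. Hcar2, the niacin receptor of myeloid and fat cells, stood at 80.5, 15.03 and 55.4 TPM in OK432, against 6.45, 3.25 and 8.86 TPM in Ctrl (2.63, SE 0.50, limma adjusted p = 0.0369), with no overlap.

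Among called genes outside these groups, chosen after their values were seen, Arg2, the mitochondrial arginase, stood at 23.9, 7.65 and 18.8 TPM in OK432, against 3.81, 3.08 and 4.98 TPM in Ctrl (1.73, SE 0.30, limma adjusted p = 0.0213). Cxcr4, the receptor that holds neutrophils in bone marrow and is carried by many cells, differed in shape from the rest, at 16.9, 21.3 and 33.2 TPM in OK432 against 11.4, 10.8 and 9.79 TPM in Ctrl (1.04, SE 0.23, limma adjusted p = 0.0487). Treated replicate 2 was in the middle for Cxcr4. Its call held in 4 of 18 refits. Nos2, the inducible nitric oxide synthase, was at 61.7, 12.3 and 43.5 TPM in OK432, against 7.60, 3.77 and 15.1 TPM in Ctrl, with treated replicate 2 inside the control range (1.94, limma adjusted p = 0.089). Ptgs2, or cyclooxygenase 2, was at 119, 52.3 and 120 TPM in OK432, against 56.9, 45.8 and 53.2 TPM in Ctrl, again with replicate 2 among the controls (limma adjusted p = 0.222).

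Treated replicate 2 was set apart in the large rises, and treated replicate 3 in the falls. Of the 78 genes called higher, 31 rose by at least 1 on the log2 scale, and their median differences from the control mean were 2.95, 1.03 and 2.53 in treated replicates 1 to 3. Replicate 2 was the treated library nearest the controls in 30 of these 31 genes, beside 41.5% of all genes tested. In the 47 smaller rises the medians were 0.53, 0.31 and 0.54, and replicate 2 was nearest the controls in 38. In the 54 falls the medians were -0.26, -0.26 and -0.37, and replicates 1, 2 and 3 were nearest the controls in 28, 26 and 0, beside 38.1%, 41.5% and 20.4% of all genes tested. The genes were called on these same libraries, so the counts describe them and test nothing.

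The calls rested unevenly on the libraries. Of the 28 rises named above by rule, 25 lost the call without treated replicate 3 (all but S100a9, Chil1 and Cstdc4), with limma adjusted p then between 0.0713 and 0.239. Without control replicate 1, 2 or 3, the call was lost in 19, 22 and 19 of the 28, with limma adjusted p from 0.0532 to 0.131. S100a8, S100a9, G0s2, Il1f9, Chil1 and Cstdc4 kept the call whichever of the 3 controls was left out. Of these, G0s2, Il1f9, Chil1 and Cstdc4 passed the filter through the treated libraries alone, so their groups had to be apart. The refits kept the genes that the filter took from all 6 libraries, the one left out included. Without treated replicate 1 the call was lost in 7 (Bcl3, Cd14, Csf3r, Il1r2, Saa3, Tnip1 and Trem1), and without treated replicate 2 it was lost in none. Every one of these 28 differences stayed above 0 in these refits, and those that lost the call were between 0.33 and 4.34.

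**Figure D3:**
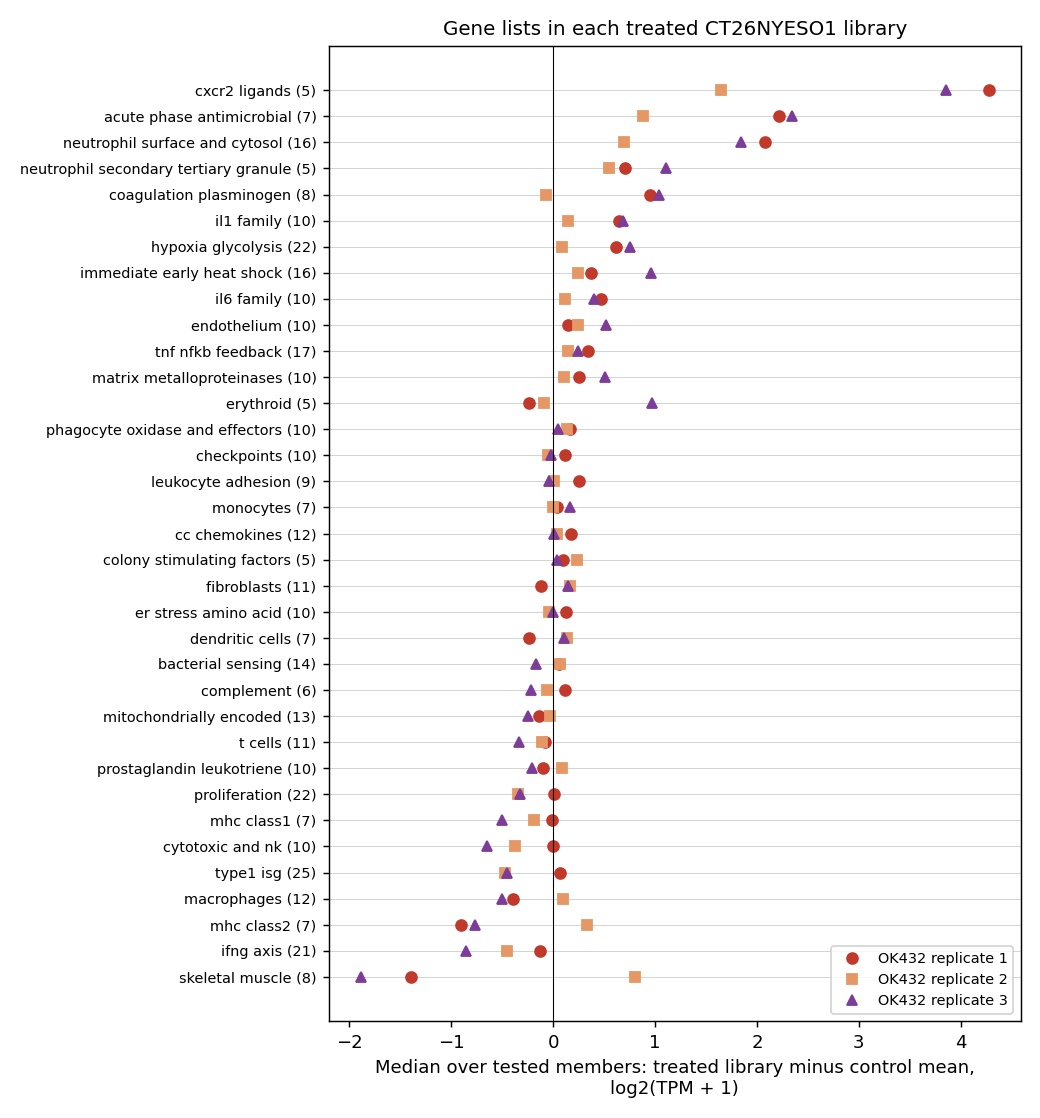
Median log2(TPM + 1) difference from the mean of the 3 Ctrl libraries, for each OK432 library (x axis), over the tested members of each gene list (y axis, number of tested members in brackets). Treated replicate 2 (square) is well below replicates 1 and 3 in the neutrophil and Cxcr2 ligand lists, near 0 in the hypoxia list, and on the other side of 0 for MHC class II and skeletal muscle genes.

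Genes of low oxygen and glycolysis had differences above 0 without being called. All 22 of the list had a log2 difference above 0, beside 6268 of the 14651 genes tested. Every treated library was above the controls in 9, beside 7.40% of all genes tested. None was called by limma, while 19 had an unadjusted p under 0.05, beside 17.7% of all genes tested. The median was 0.51, beside -0.03 over all genes tested. In treated replicates 1 to 3 the median was 0.61, 0.09 and 0.76. Vegfa, the main growth factor of blood vessels, was at 194, 130 and 238 TPM in OK432, against 108, 120 and 104 TPM in Ctrl (0.71, SE 0.25, limma adjusted p = 0.165). The groups did not overlap, and treated replicate 2 was close to the highest control. Gapdh, an enzyme of glycolysis, was at 3849, 3211 and 4439 TPM in OK432, against 3253, 2906 and 3099 TPM in Ctrl, with overlap (0.30, limma adjusted p = 0.137). Without treated replicate 2, the lowest treated library by the list median, 17 of the 22 were called higher, beside 404 of the 14651 genes tested. Without treated replicate 3 the only genes called higher were S100a9, Chil1 and Cstdc4. Hmox1, the haem-degrading stress enzyme, was at 634, 281 and 628 TPM in OK432, against 248, 216 and 141 TPM in Ctrl (1.29, limma adjusted p = 0.074). It belongs to the list of immediate-early and heat-shock genes, of whose 16 members none was called by limma. Of these 16, 11 had an unadjusted p under 0.05, beside 17.7% of all genes tested. All treated libraries were above the controls in 6, beside 7.40%.

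Most genes of the interferon-gamma axis had differences below 0, with control replicates 1 and 3 the highest. Ifng itself was low, at 3.19, 2.82 and 2.30 TPM in OK432, against 4.26, 3.29 and 5.04 TPM in Ctrl (-0.46, limma adjusted p = 0.302). Cxcl9, a T-cell chemokine induced by interferon-gamma, was at 79.2, 116 and 54.6 TPM in OK432, against 190, 89.4 and 195 TPM in Ctrl (-0.90, SE 0.70, limma adjusted p = 0.537). Control replicate 2 was among the treated libraries, and the others of the control group were above them. Of the 21 genes, 20 had a difference below 0, beside 8383 of the 14651 genes tested, and the median was -0.52. None was called by limma, with or without treated replicate 2. An unadjusted p under 0.05 was found in 2, beside 17.7% of all genes tested. The sums of the list were 2830, 2186 and 1581 TPM in OK432, against 3956, 2060 and 3726 TPM in Ctrl. Type I interferon-stimulated genes gave 24 of 25 differences below 0, a median of -0.27 and no call by limma. Of them, 0 had an unadjusted p under 0.05, beside 17.7% of all genes tested. Their sums were 2108, 1485 and 1480 TPM in OK432, against 2552, 1708 and 1837 TPM in Ctrl. In the interferon-gamma list control replicate 2, which was also low in muscle and MHC class II transcripts, stood below the other controls, whereas in the type I list control replicate 3 was close to it and treated replicate 1, low in muscle transcripts, was the highest treated library. The part of that split in these values was not tested.

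Genes of the other immune cells did not pass the test. Cd8a, the co-receptor of cytotoxic T cells, was at 4.15, 2.87 and 2.07 TPM in OK432, against 4.69, 1.85 and 4.399 TPM in Ctrl (-0.17, SE 0.28). Its groups overlapped. Gzmb, or granzyme B, was at 51.2, 33.7 and 26.6 TPM in OK432, against 46.5, 25.3 and 64.0 TPM in Ctrl, likewise with overlap. No T-cell gene of 11 and no cytotoxic or natural killer gene of 10 was called by limma. In these lists 0 and 2 had an unadjusted p under 0.05, beside 17.7% of all genes tested. The macrophage gene C1qa, a complement subunit, was at 686, 998 and 576 TPM in OK432, against 1169, 807 and 1013 TPM in Ctrl (-0.43, SE 0.17, limma adjusted p = 0.205). Treated replicates 1 and 3 were below all controls and replicate 2 was among them. Of 12 macrophage genes 11 had a difference below 0 (median -0.32), beside 8383 of the 14651 genes tested. None was called by limma, and 2 had an unadjusted p under 0.05, beside 17.7% of all genes tested. Without treated replicate 2, 4 were called lower, beside 309 of the 14651 genes tested. Ly6c2, a marker of inflammatory monocytes, was at 30.4, 19.7 and 26.7 TPM in OK432, against 41.8, 33.7 and 24.8 TPM in Ctrl, with overlap. Proliferation genes had a difference below 0 in 21 of 22, beside 8383 of the 14651 genes tested. None was called by limma, and 14 had an unadjusted p under 0.05, beside 17.7% of all genes tested. Mki67 was at 81.0, 54.9 and 60.1 TPM in OK432, against 88.0, 79.2 and 70.3 TPM in Ctrl.

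The 54 falls were small, and deepest in treated replicate 3 by the medians given above. Of them, 50 changed by less than 1.5-fold on the TPM + 1 scale. Cryl1, an enzyme of the uronate cycle (lambda-crystallin), fell most among called genes of at least 5 TPM: it stood at 7.14, 7.59 and 5.53 TPM in OK432, against 12.4, 10.9 and 10.5 TPM in Ctrl (-0.67, SE 0.09, limma adjusted p = 0.0085). The groups were apart, and it stayed called in all 18 refits. Phgdh, the first enzyme of serine synthesis, stood at 493, 471 and 406 TPM in OK432, against 652, 581 and 583 TPM in Ctrl (-0.41, SE 0.08, limma adjusted p = 0.0300). Rcc1, the exchange factor that loads Ran with GTP on chromatin, stood at 49.0, 45.7 and 44.0 TPM in OK432, against 61.3, 58.6 and 61.4 TPM in Ctrl (-0.38, SE 0.06, limma adjusted p = 0.00918). In both genes all treated libraries were below all controls. Dhrs4, a short-chain dehydrogenase, fell by 0.43, and the tubulin-folding cofactor Tbcd fell by 0.36. Calls of Phgdh and Dhrs4 held in 14 of 18 refits, and those of Rcc1 and Tbcd in 17, ending without treated replicate 3. Of the 10 largest falls, 9 lost the call without treated replicate 3 (all but Cryl1), and the same 7 lost it without control replicate 1, 2 or 3.

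**Figure D4:**
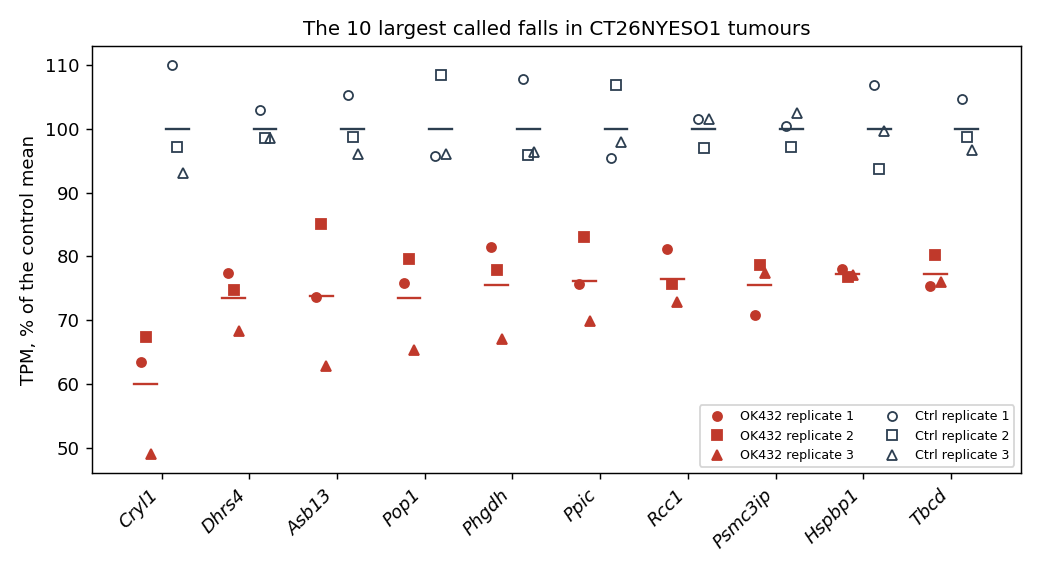
TPM of the 10 largest called falls in each CT26NYESO1 library, as a percentage of the mean of the 3 Ctrl libraries (y axis, which does not start at 0); filled symbols are OK432 libraries, open symbols Ctrl libraries, and bars are group means. The treated libraries lie below the controls in each gene, which the choice of genes required, and treated replicate 2 does not stand apart.

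The other falls of that size were Asb13, Pop1 (a subunit of the RNase that matures tRNA and ribosomal RNA), Ppic (a prolyl isomerase), Psmc3ip and Hspbp1 (a partner of heat-shock protein 70), at -0.36 to -0.42. Their calls were less stable, holding in 1 of 18 refits for Asb13, 8 for Pop1, 5 for Ppic, 3 for Psmc3ip and 14 for Hspbp1. Families were then looked up among the falls after the values were seen, so their counts describe and test nothing. Over all genes tested, 0.369% were called lower and 10.7% had all treated libraries below the controls. Of 81 mitochondrial ribosomal proteins, 4 were called lower (Mrpl2, Mrpl20, Mrpl57 and Mrps26). All treated libraries were below the controls in 28 of the 81, and the median was -0.14. Of 20 cytosolic aminoacyl-tRNA synthetases, which charge tRNAs, 2 were called (Hars and Lars), 14 had all treated libraries below the controls and the median was -0.18. Of 37 proteasome subunits, 2 were called (Psmb7 and Psmc3), 18 had all treated libraries below the controls and the median was -0.13. None of these genes was called higher, and the medians stayed below 0 under both rescalings, at -0.10 or lower.

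The OK-432 contrast was set beside the same contrast in the other tumours. All 31 of the larger rises of CT26NYESO1 tumours had a smaller effect in CT26 and in LL2 tumours, with medians of 0.93 and 0.85; the genes were chosen for their size in CT26NYESO1, so this order is a description. Their effect was above 0 in 30 of 31 in CT26 and 31 of 31 in LL2 tumours, beside 49.8% and 44.3% of all genes tested. All treated libraries were above the controls in 25 in CT26 and 26 in LL2 tumours, beside 4.72% and 4.76%. S100a9 had effects of 6.04 in CT26NYESO1, 2.86 in CT26 and 3.16 in LL2 tumours. The difference between effects was 3.19 (SE 0.91, limma adjusted p = 0.421) against CT26 and 2.88 (SE 0.91, limma adjusted p = 0.317) against LL2. Il1b had effects of 2.90, 0.69 and 1.12 in the same order, and Cxcl3 had 3.87, 0.52 and 2.53. Over the 31 genes no difference between effects was called (smallest limma adjusted p = 0.421 against CT26 and 0.277 against LL2). In each comparison 17 had an unadjusted limma p under 0.05, beside 9.21% (CT26) and 9.48% (LL2) of all genes tested. The genes were chosen on the same CT26NYESO1 effect that enters both comparisons, so this count tests nothing.

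**Figure D5:**
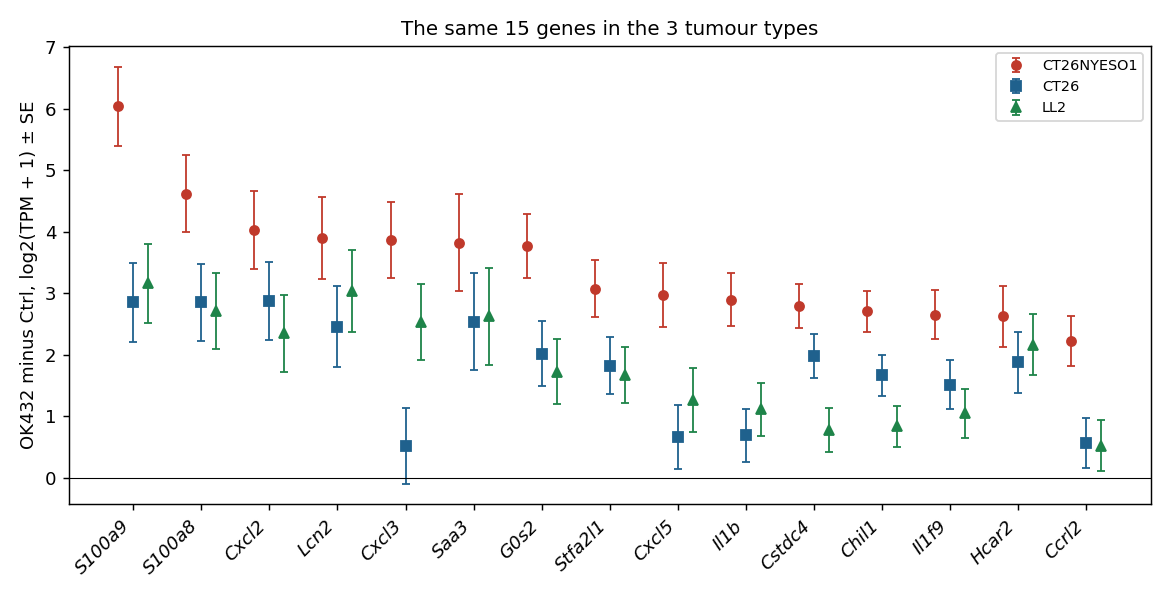
Log2(TPM + 1) difference between OK432 and Ctrl (y axis, with standard errors from limma) of the 15 largest rises of CT26NYESO1 tumours, in CT26NYESO1, CT26 and LL2 tumours. Each gene has 1 spread estimate shared by all 18 libraries. Its bars are therefore equal in the 3 tumours and do not show the spread within CT26NYESO1 tumours. The CT26NYESO1 values are the highest throughout, as the genes were chosen for them, and S100a9 reaches 6.04, 2.86 and 3.16 in the 3 tumours.

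Across all 14651 genes the effect of OK-432 differed between CT26NYESO1 and CT26 tumours in 1 gene (0.00683%) and between CT26NYESO1 and LL2 tumours in 1 gene (0.00683%), by limma. At an unadjusted p under 0.05 there were 1349 (9.21%) and 1389 (9.48%) such genes. Without treated replicate 2, 107 genes differed from CT26 and 54 from LL2. Cryl1 was the gene called against CT26: it fell in CT26NYESO1 tumours as given above, and stood at 23.0, 24.7 and 25.8 TPM in OK432 CT26 tumours, against 19.3, 20.6 and 21.3 TPM in Ctrl CT26 tumours. The difference between the effects was -0.92 (SE 0.13, limma adjusted p = 0.0472). Its call held in 2 of the 18 refits, those without treated replicates 1 or 2, with limma adjusted p up to 0.27 in the others. Without treated replicate 1 there were 8 genes called against CT26, and without treated replicate 3, or without any of the CT26NYESO1 controls, there were 0 by limma. The gene called against LL2 was Eif3j2, an initiation factor gene that was listed at 0 in all 3 OK432 LL2 libraries and has a near-identical copy, Eif3j1. In CT26NYESO1 tumours it was level, at 27.3, 30.2 and 30.0 TPM in OK432 against 29.2, 33.3 and 31.7 TPM in Ctrl.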

How the data were processed

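The authors deposited 1 table of TPM values for 18 libraries and 55291 genes, summing to 1000000 per library. Per the submitters' processing notes, Trim Galore 0.6.5, STAR 2.7.3a, StringTie 2.1.2 and the build mm10 were used, while annotation, filters and strand setting were not stated in those notes as used here. Without depth no counting interval can be given, and each TPM value is a share of its library.

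Values were analysed as log2(TPM + 1), which understates changes of low genes. Genes with at least 1 TPM in at least 3 of the 6 CT26NYESO1 libraries were tested with limma 3.58.1 (R 4.3.3; empirical Bayes, trended and robust). All 18 libraries entered 1 fit of 6 group means with no covariate and 12 residual degrees of freedom, and p-values were two-sided and Benjamini-Hochberg adjusted over the 14651 genes. An exact permutation of 3 against 3 libraries (20 assignments) cannot go below 0.1, so lists carry no test. On simulated data of the 14651 genes in this comparison, 95% of genes changed by 1 on the log2 scale and 100% of those changed by 2 were recovered, with 8 false calls. The simulated noise was normal and independent, with 1 SD per gene shared by all 6 groups. Only genes with a Ctrl mean of at least 5 TPM were changed. Unequal spread between groups was not simulated, so these shares do not measure recovery in the real libraries.

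Members and lists were chosen with earlier results of these data known. Named by rule were the 15 largest called rises and 10 largest called falls with a mean of at least 5 TPM in either group and no overlap, called list members, a panel of 21 immune and tumour genes, up to 3 of the highest uncalled members of a list, and the 3 largest called differences between effects in each direction. Alternatives were a pseudocount of 0.1, no filter, a filter over all 18 libraries, median-of-ratios and quantile rescaling, the 6 libraries alone, group weights, a replicate block and leaving out each library. The 5 libraries without treated replicate 2 were added after seeing the data. Of the table's symbols, 53292 were found in GENCODE M21. Promoter sequences are from RefSeq on GRCm38.p6, and 13 of the 15 largest rises matched.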

Additional observations from a re-analysis of the deposited data

Results flagged for a closer look

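Cryl1, a metabolic enzyme, was called in the test of the difference between CT26NYESO1 and CT26 tumours: the log2 effect of OK-432 in CT26NYESO1 minus that in CT26 was -0.92 (SE 0.13, limma adjusted p = 0.0472). Its mean was 6.75 ± 1.08 TPM in OK432 and 11.3 ± 0.989 TPM in Ctrl CT26NYESO1 tumours, and 24.5 ± 1.44 TPM in OK432 and 20.4 ± 1.03 TPM in Ctrl CT26 tumours (SD, n = 3 each). Cryl1 was lower in every treated CT26NYESO1 library and higher in every treated CT26 library than in the matching controls. The call held in 2 of the 18 refits that each left out 1 library (limma adjusted p 0.00341 to 0.27, difference -0.998 to -0.801). It was also lost with a pseudocount of 0.1 (limma adjusted p = 0.0618), with no filter (0.113), with the filter over all 18 libraries (0.0553) and with the replicate block (0.0562).

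Eif3j2, an initiation factor gene, differed between CT26NYESO1 and LL2 tumours, with an effect difference of 3.77 (limma adjusted p = 5.12e-14). It was listed at 0 in all 3 OK432 LL2 libraries and stood at 13.9, 13.9 and 13.04 TPM in Ctrl LL2 libraries, while its near-identical copy Eif3j1 averaged 52.6 ± 2.14 TPM in OK432 LL2 tumours and 50.2 ± 0.819 TPM in Ctrl LL2 tumours (SD, n = 3 each). How reads were split between the copies was not tested, and the value of Eif3j2 is uncertain.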

How the results depend on the processing

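None of the 50 called genes named in the text changed direction under any alternative. Of the 32 named but not called, 8 did, with limma adjusted p of at least 0.616 where they did. Leaving out 1 library, the difference ranged from -0.308 to 0.27 for Ccl2, -0.493 to 0.006 for Cd8a, -0.226 to 0.226 for Cma1, -0.600 to 0.112 for Ctsg, -0.593 to 0.059 for Gzmb, -0.097 to 0.192 for Itgam, -0.185 to 0.152 for Tnf and -0.465 to 0.078 for Tpsb2. Ccl2 was also at 0.27 with the 5 libraries and at 0.017 after either rescaling, and Cma1 at 0.022 (median-of-ratios) and 0.029 (quantile). Of the 125 uncalled genes that the naming rule takes, 41 changed sign under at least 1 alternative. Calls higher and lower, beside 78 and 54, were 0 and 0 with the 6 libraries alone, 26 and 7 with group weights, 39 and 18 with no filter, and 35 lower after median-of-ratios rescaling. With 5 libraries alone, treated replicate 2 left out (added after seeing the data), they were 171 and 13, of which 46 and 1 were shared with the calls reported. Over the 18 refits leaving out 1 library, higher calls ranged from 3 to 404 and lower calls from 1 to 309. Genes differing from CT26 ranged from 0 to 107 and from LL2 from 1 to 54. The gene called against CT26 was lost (0 called) with the filter over all 18 libraries, with no filter, and with a pseudocount of 0.1. The cause of these moves was not tested.

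Same-numbered OK432 and Ctrl libraries of CT26NYESO1 tumours deviated together at r = 0.088, -0.13 and -0.119 across genes. Differently numbered ones ranged from -0.21 to 0.287. Deviations from a mean of 3 libraries constrain each other, so these values cannot show whether the numbers pair the samples. The labels do not say whether they do. With a replicate block, 48 genes were called higher, 9 lower and 0 against CT26, of which 36 and 8 were shared with the calls without it.

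Depth is unknown and TPM is a share, so limits of detection cannot be given.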
